A study of Mus musculus with 84 samples.

Results

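The livers and the epididymal white adipose tissue (eWAT, the fat pad beside the testis) of obese mice that received vehicle alone were compared. The comparison took in 12 of the 84 libraries of the series, 6 of liver and 6 of eWAT, which were chosen by their group and library number in the sample titles and not by any measured value. In the study, diet-induced obese (DIO) mice were dosed every day for 30 days with vehicle, with BI456906, an agonist of the glucagon receptor (GCGR) and the GLP-1 receptor (GLP-1R), or with semaglutide, an agonist of the GLP-1R alone. The 12 libraries came from male mice whose genotype is given as C57BL/6J, kept on a 60% high-fat diet, singly housed and 22 weeks old at the start, with 11 animals in each group. Liver libraries were numbered 43 to 48 and eWAT libraries 1 to 6, and neither the labels nor the methods tie a liver and a fat pad to one animal. All animals were obese and male, so the values describe the tissues in that state and not how obesity changed them.

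Liver and adipose tissue divide the handling of fuel between them. Hepatocytes release glucose, build and secrete lipoproteins and most plasma proteins, make bile acids, oxidise fatty acids to ketone bodies and turn the nitrogen of amino acids into urea. Adipocytes take up fatty acids, store them as triglyceride in a single large droplet, release them by lipolysis and secrete hormones such as leptin and adiponectin, and an obese fat pad also gathers macrophages around its adipocytes.

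Each liver library held 40479375 to 46477987 recovered reads and each eWAT library 40313670 to 49292129, so that depth was alike in both tissues. Levels are given as TPM, a transcript's share of all transcripts of a library after division by length, which can be set side by side between genes of one tissue. Differences are log2 differences, liver minus eWAT, from limma/voom with TMM scaling, and a gene is described as higher in a tissue when the difference was at least 1 in size at an FDR of at most 0.05. The libraries had different make-up, since 82 genes made up 50% of the TPM in liver and 401 genes did so in eWAT. The choice of scaling therefore mattered, and the median difference over all 16885 genes tested was -0.08 with TMM and -0.97 with library size alone, a shift of 0.90. Values from library size alone are given beside the counts and beside the named genes whose call they change.

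With TMM, 3823 genes (22.6%) were higher in liver and 5119 (30.3%) were higher in eWAT, together 8942 (53%). Both scalings called 2254 genes (13.3%) higher in liver and 5119 (30.3%) higher in eWAT, and library size alone called 2254 (13.3%) and 8233 (48.8%). The counts of each gene list below are to be read against these shares of all genes. Among the genes with at least 10 TPM in one tissue and under 1 TPM in the other, 103 were liver genes and 525 were eWAT genes. These 2 counts are not on equal terms. Hepatocyte markers (below) had medians of 0.0429% to 7.67% of their liver level in the eWAT libraries. Adipocyte markers had medians of 0.407% to 1.08% of their eWAT level in the liver libraries, where single markers differed widely (below). Alb, for example, was above 1 TPM in every eWAT library and so could not be counted.

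The tissue labels were checked against markers of the main cell types. All 20 hepatocyte markers were higher in liver and all 12 adipocyte markers were higher in eWAT, with both scalings. For none of these genes did the TPM values of the tissues overlap, whereas over all genes tested the 6 liver values were all higher for 12.4% and the 6 eWAT values for 69.8%. Alb, which encodes albumin, stood at 43236 to 54898 TPM (median 45972) in liver and at 9.87 to 3679.7 TPM (median 917) in eWAT. Adiponectin (Adipoq) stood at 0.08 to 0.53 TPM (median 0.175) in liver and at 1319.9 to 3169 TPM (median 1592) in eWAT. Leptin (Lep), the hormone that reports fat mass to the brain, was close to absent in liver at 0.03 to 0.14 TPM (median 0.045), and stood at 809.98 to 1646 TPM (median 965) in eWAT. Summed over the list, hepatocyte markers made up 98031 to 114317 TPM in liver and 39.9 to 8045 TPM in eWAT, and adipocyte markers 78.2 to 259.5 TPM in liver and 6896 to 15571 TPM in eWAT.

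Liver transcripts were present in the vehicle eWAT libraries at levels that differed between libraries. Expressed as a share of the mean liver TPM, the median of the 20 hepatocyte markers was 0.0429% in eWAT library 1, 7.67% in library 2, 3.01% in library 3, 2.72% in library 4, 1.17% in library 5 and 1.91% in library 6. The shares of single markers ran from 4.85% (Tat) to 9.61% (Cps1) in library 2 and from 2.35% (Hpd) to 3.40% (Apoa2) in library 3, whereas in library 1 they ran from 0.0127% (Cps1) to 1.01% (Hal). For a liver gene, the level in eWAT was thus read against these shares. Of the 3823 genes higher in liver, 831 (21.7%) had a mean eWAT level at or under 7.67% of their liver level, the share in library 2, and 143 at or under 2.315%, the median share of the 6 libraries. In library 1, 3116 of the 3823 (81.5%) were above 1.01% of their liver level, the highest share of any marker there. Because library 1 was so far below the others, the log2 difference of hepatocyte genes depended on it, and the median over the markers was 7.54 with all libraries, 6.52 without eWAT library 1 and 8.08 without library 2. The calls rested on it less, and 3776 of the 3823 were also called without library 1. How the liver transcripts came to be in eWAT was not tested. Adipocyte markers in the 6 liver libraries had medians of 0.407% to 1.08% of their mean eWAT level. These medians do not stand for a share common to the markers. Single markers ran from 0.00205% (Plin1, liver library 47) to 7.59% (Plin4, liver library 46). Lep was at most 0.0128% and Adipoq at most 0.0271% in any liver library, whereas Plin4 was at least 2.64%.

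**Figure D1:**
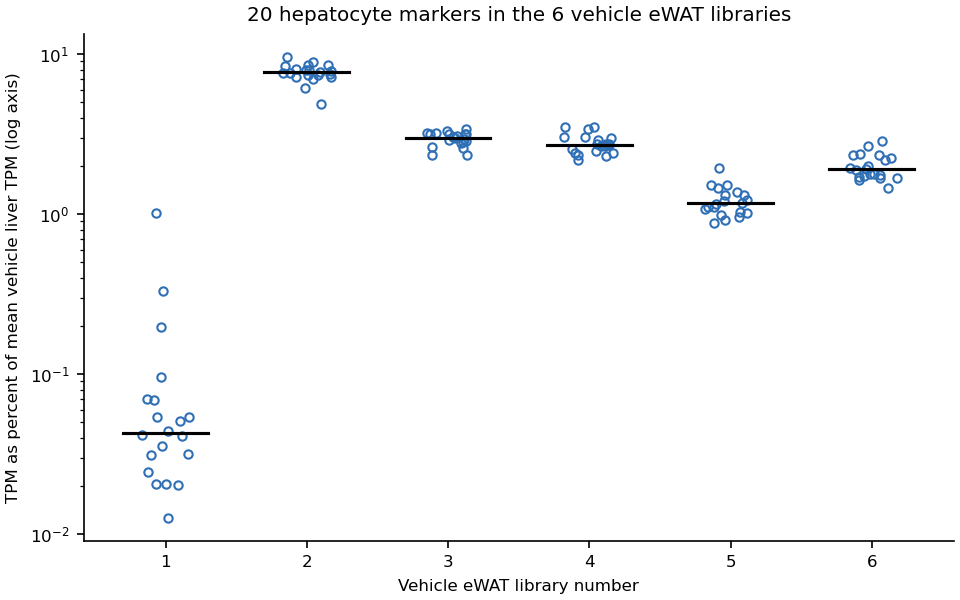
Each point is 1 of 20 hepatocyte markers in 1 vehicle eWAT library (x axis, library number), as its TPM in percent of its mean TPM in vehicle liver (y axis, log scale), and the black bar is the median of the 20. Library 1 sits at a median of 0.0429% with wide scatter, and libraries 2 to 6 form tighter groups with medians from 1.17% to 7.67%.

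The transcription factors that define each tissue followed the same split. Of 36 factors tested, 26 were higher in liver and 6 in eWAT with TMM (22 and 7 with library size alone), against 22.6% and 30.3% of all genes. Hnf4a, a nuclear receptor that maintains the hepatocyte program, stood at 136 to 201 TPM (median 192) in liver and 0.08 to 11.2 TPM (median 3.71) in eWAT, a difference of 7.66 (95% interval 5.92 to 9.39, limma/voom FDR 1.03e-06, 6.73 without eWAT library 1). Gata4, a zinc finger factor, stood at 13.3 to 16.8 TPM (median 14.2) in liver and 0 to 1.3 TPM (median 0.225) in eWAT, a difference of 7.95 (7.05 without eWAT library 1 and 8.55 without library 2). In eWAT library 1 Hnf4a was 0.08 TPM and Gata4 was at 0, and liver and eWAT values did not overlap.

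In eWAT the factors with the largest differences were Ebf2, Ebf1 and Prrx1, which act in adipocytes and their mesenchymal progenitors. Ebf2 had 6 reads in the 6 liver libraries together and 10772 in the 6 eWAT libraries, a ratio of 1690 at equal depth (exact 95% interval 776 to 4607, counting error only). Ebf1 stood at 33.05 to 56.1 TPM (median 34.9) in eWAT and 0.11 to 0.18 TPM (median 0.125) in liver, and Prrx1 at 24.6 to 42.5 TPM (median 39.6) and 0.2 to 0.56 TPM (median 0.37). Pparg, the nuclear receptor that drives adipocyte formation, was higher in eWAT by a smaller margin, at 73.3 to 109 TPM (median 76.2) against 9.95 to 19.9 TPM (median 16.6) in liver, a difference of -1.08 (95% interval -1.41 to -0.74) with TMM and -1.98 with library size alone. This call sat at the threshold, since the TMM difference was -0.95 without liver library 47 and -0.99 without eWAT library 5, and it was also lost without eWAT library 6. Cebpa, a factor shared by hepatocytes and adipocytes and picked out after its values were seen, was abundant in both tissues, at 218 to 277 TPM (median 238) in liver and 256 to 388 TPM (median 295) in eWAT. Its difference was 1.02 with TMM and 0.12 with library size alone, which called it in neither tissue. The TMM call also sat at the threshold and was lost without eWAT library 1 or 4 (0.99 and 0.97) or liver library 43 or 48 (1.00 for each), and with DESeq2 (1.00).

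Sequences upstream of the genes that mark each tissue are shown here because Cebpa, described above, belongs to the C/EBP family, which binds DNA of this kind. They come from the RefSeq promoter table on GRCm38.p6, on the plus strand and 5′ to 3′, and cover up to 250 bases before the RefSeq start: Alb at chr5:90460620-90460869 (27 bases before the start in the gene annotation), Fabp1, the fatty acid binding protein of liver, at chr6:71199629-71199826, Adipoq at chr16:23146286-23146535 and Lep at chr6:29059971-29060219. Capitals mark TTGCNNAA, a C/EBP-type motif searched on both strands.
Alb: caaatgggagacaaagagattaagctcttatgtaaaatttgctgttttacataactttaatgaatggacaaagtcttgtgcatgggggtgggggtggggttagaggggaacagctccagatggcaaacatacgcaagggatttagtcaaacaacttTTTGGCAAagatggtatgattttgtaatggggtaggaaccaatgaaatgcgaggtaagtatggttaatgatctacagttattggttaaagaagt
Fabp1: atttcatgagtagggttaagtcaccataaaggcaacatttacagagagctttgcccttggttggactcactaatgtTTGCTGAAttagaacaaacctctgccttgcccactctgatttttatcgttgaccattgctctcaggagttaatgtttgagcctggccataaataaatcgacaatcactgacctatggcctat
Adipoq: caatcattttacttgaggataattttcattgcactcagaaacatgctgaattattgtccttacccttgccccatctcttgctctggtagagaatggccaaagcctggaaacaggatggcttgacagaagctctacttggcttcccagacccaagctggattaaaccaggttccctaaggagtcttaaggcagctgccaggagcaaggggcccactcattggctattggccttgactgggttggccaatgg
Lep: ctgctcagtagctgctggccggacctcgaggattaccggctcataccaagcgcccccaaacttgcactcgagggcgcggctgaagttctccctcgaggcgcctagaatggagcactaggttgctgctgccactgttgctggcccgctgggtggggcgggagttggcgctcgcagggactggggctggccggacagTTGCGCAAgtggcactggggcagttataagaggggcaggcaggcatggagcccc
The Alb, Fabp1 and Lep windows each held 1 TTGCNNAA match and the Adipoq window held 0. Over all 27025 genes in the table, 10.8% had TTGCNNAA in the same window of at least 1 start. Of the genes in the table it was found in 6 of 16 hepatocyte markers and 3 of 9 adipocyte markers, and in 4 of 22 amino acid breakdown, 2 of 12 bile acid, 3 of 20 drug-metabolising cytochrome, 3 of 17 lipoprotein and 2 of 22 matrix genes. TATAAA, also searched on both strands, was found in 14.3% of all genes, in 3 of the 16 hepatocyte markers and in none of the 9 adipocyte markers. For the other lists it was found in 12 of 20 cytochrome, 7 of 17 lipoprotein, 5 of 12 bile acid, 4 of 22 amino acid breakdown and 1 of 22 matrix genes. A match describes these letters only, and neither factor binding nor any part in the difference between the tissues was tested.

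Receptors were of interest because the study drugs act through GCGR and GLP-1R. Gcgr (GRCm38 chr11:120530699-120538986) was a liver transcript, at 216 to 229.9 TPM (median 227) in liver with little spread between libraries (225 ± 5.48 TPM, SD, n = 6) and at 1.61 to 18.96 TPM (median 7.67) in eWAT. The difference was 6.29 (95% interval 5.47 to 7.10, limma/voom FDR 4.45e-09), or 5.89 without eWAT library 1. In eWAT, Gcgr was 1.61 TPM in library 1, 18.96 TPM in library 2 and 7.41 to 8.39 TPM in libraries 3 to 6. As a share of the liver mean, Gcgr in libraries 1 to 4 lay within the range of the hepatocyte markers of the same library. It was above the marker median in each. In library 1 Gcgr was 0.716%, against a marker median of 0.0429%. There it was under Hal (1.01%) and above every other marker, the next being Fetub at 0.332%. In libraries 2, 3 and 4 Gcgr was 8.43%, 3.29% and 3.49%. The marker medians there were 7.67%, 3.01% and 2.72%, and the highest markers 9.61%, 3.40% and 3.52%. In libraries 5 and 6 Gcgr was 3.73% and 3.33%, above the highest marker there (1.93% and 2.88%). Glp1r (chr17:30901817-30940791) was at or near 0 in both tissues, with at most 0.05 TPM and 4 reads in any liver library and at most 0.09 TPM and 3 reads in any eWAT library, and did not pass the filter on low values. The receptor for the incretin GIP, Gipr (chr7:19156061-19166127), was found in eWAT at 5.45 to 11.6 TPM (median 7.45) and had 2 reads in the 6 livers together against 4145 in eWAT, a ratio of 1951 at equal depth (exact 95% interval 540 to 16120). These are whole tissues, so a lower level in one of them can mean fewer cells of a type or less RNA per cell, which cannot be told apart.

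**Figure D2:**
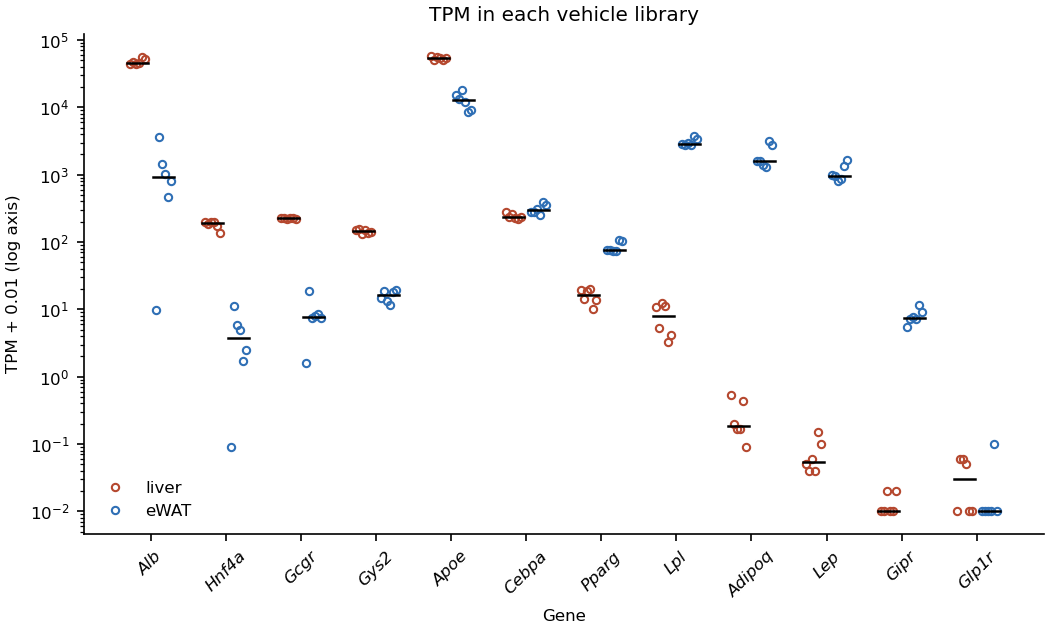
TPM + 0.01 on a log axis for 12 genes in each of the 6 vehicle liver (red) and 6 vehicle eWAT (blue) libraries, with black bars at the medians. Alb, Hnf4a and Gcgr scatter widely in eWAT and tightly in liver, Gys2 and Apoe are lower but evenly present in eWAT, Cebpa is at like TPM in both tissues, and Gipr is seen in eWAT and Glp1r at or near 0 in both.

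Among 37 tested receptors for hormones and metabolites, 10 were higher in liver and 16 in eWAT with TMM (7 and 20 with library size alone), against 22.6% and 30.3% of all genes. On the liver side, Asgr1 and Asgr2, which form the asialoglycoprotein receptor that clears plasma glycoproteins, stood at 537 to 679.7 TPM (median 607) and 221 to 243 TPM (median 230.1) in liver. In eWAT they were at 0.42 to 49 TPM (median 15.5) and 2.13 to 18.6 TPM (median 7.04), with differences of 7.35 and 6.42 (6.46 and 6.12 without eWAT library 1). Fgfr4, through which the gut hormone FGF15 acts on hepatocytes, stood at 16.1 to 20.5 TPM (median 17.8) in liver and 0 to 1.65 TPM (median 0.43) in eWAT, a difference of 7.47 (6.38 without eWAT library 1). On the eWAT side, Mc2r, the receptor for corticotropin, had no read in any liver library and 3847 reads in eWAT, where it stood at 11.1 to 23.9 TPM (median 11.8). Hcar1, the lactate receptor of adipocytes, stood at 22.4 to 50.1 TPM (median 25.3) in eWAT and 0.01 to 0.05 TPM (median 0.04) in liver, and none of these eWAT values overlapped the liver values.

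A set of 26 steps for which the genome has a liver form and another form of the same kind of protein was then followed within each library. The ratio of the liver form to the other form, as log2 of TPM + 0.1, does not depend on scaling between libraries. In liver the liver form was higher in all 6 libraries for all 26 pairs. In eWAT the other form was higher in all 6 libraries for 17 pairs, the liver form for 5 pairs, and the order differed between libraries for 4. The liver ratio exceeded the eWAT ratio in the mean for all 26 pairs. The 6 liver ratios lay above the 6 eWAT ratios without overlap for 25 pairs, and for Rxra/Rxrg they overlapped. The pairs were chosen for their liver form with earlier results known, so these counts describe them and no test is given.

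Fat transport held the widest switch, that of Fabp1/Fabp4. For the fatty acid binding proteins Fabp1 and Fabp4, the ratio was 8.57 ± 0.77 in liver and -6.51 ± 2.65 in eWAT (SD, n = 6), a switch of 15.08 log2 units, or 14.11 without eWAT library 1. Fabp4 alone went from 16.4 to 52.6 TPM (median 35.6) in liver to 12102 to 23205 TPM (median 13599) in eWAT, where it was the most abundant transcript, and Fabp1 from 10157 to 13912 TPM (median 11966) to 5.16 to 944 TPM (median 281). For the lipases bound to vessel walls, hepatic lipase (Lipc) and lipoprotein lipase (Lpl), the switch was 13.96 units (13.68 without eWAT library 1). Lpl stood at 3.23 to 12.3 TPM (median 7.97) in liver and 2740.4 to 3708 TPM (median 2888) in eWAT. The glycerol channels Aqp9, by which liver takes up glycerol, and Aqp7, by which adipocytes release it, switched by 11.95 units, and the fatty acid transporters Slc27a5 and Slc27a1 by 10.69 (11.79 and 9.83 without eWAT library 1).

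In glucose metabolism the transporters Slc2a2, a high-capacity carrier, and Slc2a4, which insulin sends to the cell surface, switched by 12.62 units (12.17 without eWAT library 1). Slc2a2 stood at 139 to 169 TPM (median 149) in liver and 0.54 to 10.7 TPM (median 3.81) in eWAT, and Slc2a4 at 0.19 to 0.52 TPM (median 0.345) and 42.1 to 95.7 TPM (median 56.01). The pyruvate kinases Pklr and Pkm switched by 11.31 units and the glucose 6-phosphatases G6pc and G6pc3 by 8.77 (10.35 and 7.82 without eWAT library 1). Glycogen synthase showed a narrower and tighter switch. Gys2 stood at 131 to 154 TPM (median 145) in liver and at 11.4 to 19.3 TPM (median 16.6) in eWAT, with 10.4% of the liver mean in eWAT library 1, far above any hepatocyte marker there. Its ratio to Gys1 was 6.32 ± 0.17 in liver and -0.80 ± 0.24 in eWAT (SD, n = 6), so that both forms were present in eWAT at like TPM. The same held for the glycogen phosphorylases, where Pygl stood at 49.5 to 78.9 TPM (median 62.4) and Pygb at 57.7 to 112 TPM (median 80.4) in eWAT.

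The pairs that did not switch order in eWAT were Cpt1a/Cpt1b, Scd1/Scd2, Gpat4/Gpat3, Arg1/Arg2 and Rxra/Rxrg. Arg1 stood at 866 to 1164 TPM in liver. In eWAT it was lowest in library 1 (4.55 TPM) and highest in library 2 (72.77 TPM), as were the hepatocyte markers, with 10.7 to 30.31 TPM in libraries 3 to 6. Arg2 was at most 0.33 TPM in eWAT, and the part of liver transcripts in the order of Arg1/Arg2 was not tested. Scd1, the desaturase that makes oleate, was abundant in both tissues, at 1039 to 1800.2 TPM (median 1689.95) in liver and 3042 to 10721 TPM (median 4611) in eWAT, with differences of -0.35 with TMM and -1.25 with library size alone, which called it in eWAT. Cpt1a, which admits fatty acids to mitochondria, stood at 243 to 297 TPM (median 259.96) and 91.4 to 128 TPM (median 118). Fbp1/Fbp2, Ppp1r3b/Ppp1r3c, Plin2/Plin1 and Tfr2/Tfrc were the 4 pairs of mixed order. Fbp1, a gluconeogenic enzyme, was 0.49 TPM in eWAT library 1, under Fbp2 at 2.94 TPM, and 12.46 to 92.04 TPM in libraries 2 to 6, above Fbp2 at 1.16 to 5.22 TPM. Library 1 was also the library with the lowest share of hepatocyte markers, and the part of liver transcripts in this order was not tested.

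**Figure D3:**
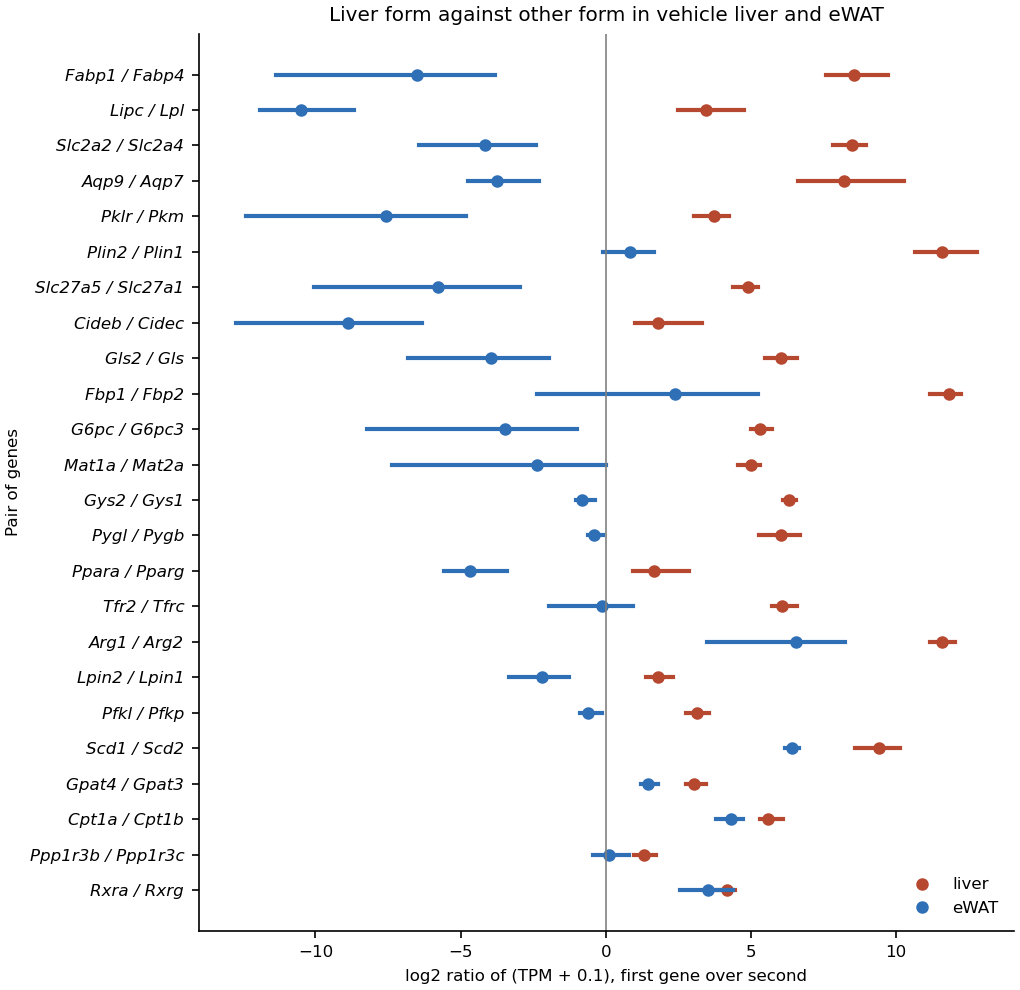
For pairs of genes (y axis), the log2 ratio of TPM + 0.1 of the liver form over the other form (x axis), as mean (point) and range (line) over 6 vehicle liver (red) and 6 vehicle eWAT (blue) libraries. Liver points lie above 0 for every pair shown, and the distance to eWAT grows from 0.67 for Rxra/Rxrg to 15.08 for Fabp1/Fabp4.

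Genes of glucose output were mostly liver genes. Of 15 tested, 13 were higher in liver and 1 in eWAT with TMM (11 and 1 with library size alone), with a median difference of 3.14 against -0.08 over all genes. G6pc, which releases free glucose, stood at 229 to 372 TPM (median 302) in liver and 0.05 to 20.7 TPM (median 7.32) in eWAT, a difference of 7.71 (6.52 without eWAT library 1 and 8.30 without library 2). Sds, which turns serine into pyruvate, stood at 117 to 179 TPM (median 145) and 0.1 to 9.64 TPM (median 3.3), a difference of 7.26 (6.39 without that library). Pck1, picked out after its values were seen, encodes an enzyme used in liver for glucose and in fat for glycerol, and it was abundant in both, at 632 to 1783 TPM (median 933) in liver and 407 to 1367 TPM (median 683) in eWAT with overlapping ranges. Its difference of 1.80 with TMM was 0.90 with library size alone, and only TMM called it. Pck2, the mitochondrial form, was the list's 1 eWAT gene, at 15.9 to 22.4 TPM (median 19.4) against 2.02 to 3.63 TPM (median 2.88) in liver.

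Fat synthesis did not divide cleanly. Of 16 lipogenic genes, 7 were higher in liver and 2 in eWAT with TMM, and 4 and 4 with library size alone. All genes had shares of 22.6% and 30.3% with TMM and 13.3% and 48.8% with library size alone. The median difference of the list was 0.92 with TMM and 0.03 with library size alone. Mlxipl, which encodes the glucose-sensing factor ChREBP, and the elongases Elovl5 and Elovl6 were the liver genes with the largest differences, 4.12, 4.07 and 3.32, and were called with both scalings. Elovl5 stood at 328 to 515 TPM (median 418) in liver and 53.4 to 81.7 TPM (median 60.5) in eWAT. Scd2 and Pnpla3 were the eWAT genes, and Pnpla3 stood at 13.8 to 24.9 TPM (median 21.1) in eWAT and 0.17 to 0.44 TPM (median 0.295) in liver. Fasn, the fatty acid synthase and again picked out after its values were seen, stood at 113 to 207 TPM (median 146) in liver and 148 to 648 TPM (median 264) in eWAT, a difference of -0.46 (95% interval -1.06 to 0.15, limma/voom FDR 0.143) that library size alone put at -1.35 and called for eWAT.

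Triglyceride storage used different coat proteins. Plin1, the perilipin of adipocyte droplets, stood at 0.02 to 0.37 TPM (median 0.145) in liver and 689 to 1384 TPM (median 845) in eWAT, while Plin5, the perilipin of oxidative tissues, stood at 84.3 to 116 TPM (median 96.5) and 8.2 to 11.98 TPM (median 10.2) with a difference of 4.58. Plin2 was abundant in both, at 697 to 912 TPM (median 777) in liver and 1310.4 to 2194 TPM (median 1689) in eWAT, and its difference changed sign from 0.41 with TMM to -0.49 with library size alone. Cidec, a droplet fusion protein, was the eWAT form at 1956 to 3989 TPM (median 2284), yet it reached 33 to 165 TPM (median 138) in these obese livers, and Cideb stood at 326 to 353 TPM (median 341) in liver and 0.24 to 28.1 TPM (median 8.67) in eWAT. Cidea, often used as a brown fat marker, was higher in liver, at 6.18 to 55.6 TPM (median 42.5), than in eWAT, at 4.3 to 8.1 TPM (median 5.1), a difference of 3.80. The lowest liver value, 6.18 TPM in library 47, lay within the eWAT range and the other 5 lay above it. Over the whole list of 25, 10 genes were higher in liver and 6 in eWAT with TMM (8 and 9 with library size alone). The shares of all genes were 22.6% and 30.3% (13.3% and 48.8% with library size alone).

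Lipolysis leaned to eWAT, with 3 of 16 genes higher in liver and 8 in eWAT (3 and 12 with library size alone). The shares of all genes were 22.6% and 30.3% (13.3% and 48.8% with library size alone). Lipe, the hormone-sensitive lipase, stood at 523 to 1127 TPM (median 631) in eWAT and 11.8 to 15.7 TPM (median 13.4) in liver, a difference of -4.38. Prkar2b, the regulatory subunit of protein kinase A through which catecholamines act in fat, showed 225 to 435 TPM (median 259) and 0.21 to 0.83 TPM (median 0.395), a difference of -8.12. The liver side held the carboxylesterases Ces1f and Ces1d, with differences of 3.58 and 2.54, and G0s2, an inhibitor of the first lipase of the cascade, at 359 to 779.7 TPM (median 503) in liver and 189 to 369.7 TPM (median 279.98) in eWAT. Ces1 genes are close copies of each other, so their split of reads is uncertain.

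Fatty acid oxidation and ketone genes were almost all higher in liver, 20 of 21 with TMM and 14 with library size alone, with 1 higher in eWAT by both. The median difference was 2.69. Cyp4a10 and Cyp4a14, which oxidise fatty acids at the far end, stood at 664 to 1181 TPM (median 968) and 627 to 1252 TPM (median 808) in liver and at 0.51 to 54.5 TPM (median 20.3) and 0.39 to 47.6 TPM (median 22.6) in eWAT. Bdh1, which makes the ketone body 3-hydroxybutyrate, stood at 236 to 304 TPM (median 266) in liver and 0.68 to 17.5 TPM (median 5.83) in eWAT. The 1 eWAT gene was Oxct1, which uses ketone bodies and which hepatocytes are known to lack, at 182 to 261 TPM (median 217) in eWAT and 2.05 to 4.17 TPM (median 2.9) in liver, a difference of -4.85 (95% interval -5.20 to -4.51, limma/voom FDR 2.29e-11).

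Lipoprotein genes were higher in liver in 22 of 24 cases (21 with library size alone), with a median of 6.78, or 6.22 without eWAT library 1. Apoe was the most abundant gene of liver at 50199 to 56783 TPM (median 53786) and the second most abundant of eWAT at 8639 to 18335 TPM (median 12772), and its level in eWAT library 1 was 28.2% of the liver mean. Apoa2 and Apoa4 stood at 24179.5 to 27102 TPM (median 25147) and 1973 to 5002 TPM (median 4073) in liver and at 13.6 to 2036 TPM (median 718) and 1.63 to 235 TPM (median 91.2) in eWAT. The 2 eWAT genes were Abca1, the cholesterol exporter, at 82.3 to 118 TPM (median 106) against 7.92 to 15.96 TPM (median 10.8) in liver, and Pltp, the phospholipid transfer protein, at 957 to 1422 TPM (median 1155) against 80.7 to 209 TPM (median 148).

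Cholesterol synthesis was higher in liver for 16 of 19 genes with TMM and 11 with library size alone, and for none in eWAT. Fdps, which makes farnesyl diphosphate, stood at 139.8 to 383 TPM (median 242) and 31.5 to 56.7 TPM (median 43.3). All 17 bile acid genes were higher in liver with both scalings, with a median of 7.22 (6.19 without eWAT library 1). The bile acid carriers Slc10a1 and Slco1b2 stood at 405 to 611 TPM (median 537) and 311 to 431 TPM (median 366) in liver and at 0.21 to 37.5 TPM (median 9.39) and 0.12 to 25.5 TPM (median 8.69) in eWAT, and neither overlapped.

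Nitrogen metabolism lay on the liver side. All 28 genes of amino acid breakdown were higher in liver with both scalings, and all 11 of the urea cycle list with TMM and 10 with library size alone. Otc, the urea cycle enzyme that joins ornithine and carbamoyl phosphate, stood at 168 to 219 TPM (median 185) in liver and 0 to 16.8 TPM (median 4.52) in eWAT, with no read in eWAT library 1, and the difference was 8.04 (6.52 without that library and 8.77 without library 2). Cps1, which makes carbamoyl phosphate, stood at 331 to 623 TPM (median 450.1) and 0.06 to 45.5 TPM (median 11.3), a difference of 7.73 (6.49 without library 1 and 8.40 without library 2). The gene that only TMM called was Glul, glutamine synthetase, at 647 to 861 TPM (median 759) in liver and 781 to 993 TPM (median 909.9) in eWAT, with differences of 1.06 and 0.17. Hgd and Tdo2, which break down tyrosine and tryptophan, stood at 339 to 414 TPM (median 359) and 811 to 1144 TPM (median 915) in liver, with differences of 7.78 and 7.78 (6.67 and 6.68 without eWAT library 1).

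Breakdown of branched-chain amino acids was divided. Of 18 genes 12 were higher in liver and 2 in eWAT with TMM, and 6 and 3 with library size alone. All genes had shares of 22.6% and 30.3% with TMM and 13.3% and 48.8% with library size alone. The 2 that TMM placed in eWAT were the transaminases of the first step. Bcat2 stood at 105 to 132 TPM (median 125) in eWAT and 25.2 to 32.7 TPM (median 27.7) in liver, a difference of -1.10. Bcat1 stood at 7.07 to 37.1 TPM (median 15.8) in eWAT and had 1 read over the 6 livers against 6310 in eWAT, a ratio of 5941 at equal depth (exact 95% interval 1066 to 234700). The next enzyme, the branched-chain dehydrogenase, was represented by Bckdha at 196 to 223 TPM (median 208) in liver and 86.5 to 140.02 TPM (median 99.3) in eWAT and by Bckdhb at 82.3 to 93.1 TPM (median 91.03) and 44.8 to 81.1 TPM (median 49.6), with differences of 2.29 and 2.03 (1.40 and 1.13 with library size alone). Limma on log2(TPM + 0.1) and log2(TPM + 1) called neither, with differences of 0.95 and 0.94 for Bckdha and 0.69 and 0.68 for Bckdhb.

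Cytochrome P450 genes of drug metabolism were higher in liver in 22 of 23 cases (21 with library size alone). Cyp2c29 showed a difference of 8.22 (6.94 without eWAT library 1 and 8.85 without library 2), at 286 to 540.1 TPM (median 333) in liver and 0.02 to 21.04 TPM (median 6.1) in eWAT. Cyp1b1 was the 1 eWAT member, at 24.7 to 52.4 TPM (median 37.96) against 0.26 to 1.59 TPM (median 0.525) in liver. The Cyp2c genes are near copies of each other, so reads may be split between them.

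Genes for secreted proteins were followed next. Complement and coagulation genes were higher in liver in 32 of 39 cases and in eWAT in 7 (26 and 7 with library size alone). Fga, F2 and Plg, for fibrinogen, prothrombin and plasminogen, stood at 1972 to 2655 TPM (median 2203), 1284 to 1423 TPM (median 1315) and 936 to 1188 TPM (median 1002) in liver, with differences of 7.80, 7.77 and 7.81 (6.68, 6.65 and 6.73 without eWAT library 1, and 8.39 for Fga and 8.36 for F2 without library 2). On the eWAT side F13a1, a chain of the clot-linking factor XIII, stood at 23.1 to 75.4 TPM (median 55.9) against 0.08 to 0.15 TPM (median 0.125) in liver. Cfd, the complement protease adipsin, stood at 414 to 1763 TPM (median 953) against 5.44 to 18.7 TPM (median 11.7). These genes did not overlap between the tissues.

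Of 17 hepatokines 16 were higher in liver with TMM and 15 with library size alone, which placed 1, Fst, in eWAT. Inhbe, for an activin subunit, stood at 47.1 to 55.95 TPM (median 50.1) in liver and 0.02 to 3.6 TPM (median 1.19) in eWAT, a difference of 7.57 (6.63 without eWAT library 1). Fgf21, a fasting hormone and again a gene picked after its values were seen, stood at 16.1 to 32.6 TPM (median 22.9) in liver and 0.61 to 1.79 TPM (median 1.11) in eWAT, a difference of 5.69. Of 16 adipokines 11 were higher in eWAT and 3 in liver (12 and 2 with library size alone, which did not call Cxcl12). Resistin (Retn) stood at 235 to 707 TPM (median 423) in eWAT and 0.04 to 0.12 TPM (median 0.07) in liver. The 3 on the liver side were Rbp4, a retinol carrier, Agt, the precursor of angiotensin, and Cxcl12. Rbp4 stood at 5695 to 6410.4 TPM (median 5964) in liver and 222 to 772 TPM (median 511) in eWAT, and Agt at 484 to 521 TPM (median 513) and 23.1 to 70.2 TPM (median 40.9), with differences of 5.01 and 4.87. In eWAT library 1 both were above every hepatocyte marker, at 3.699% and 4.53% of the liver mean.

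Macrophage markers were higher in eWAT. All 12 were called there with both scalings, against 30.3% of all genes. For all 12 the 6 eWAT TPM values were above the liver values, as they were for 69.8% of all genes. Lyz2 stood at 1975 to 6299 TPM (median 4406) in eWAT and 50.1 to 105 TPM (median 84.1) in liver, and the integrins Itgam and Itgax at 61.4 to 131 TPM (median 114) and 98.7 to 271 TPM (median 167) against 0.52 to 0.95 TPM (median 0.72) and 1.25 to 4.34 TPM (median 2.94). Genes of lipid-associated macrophages, the lipid-laden cells of obese fat, showed a similar split. Lgals3 reached 2377 to 5457 TPM (median 3738) in eWAT against 9.68 to 33.4 TPM (median 22.9) in liver, Mmp12 561 to 2562 TPM (median 1295) against 2.32 to 13.04 TPM (median 6.56), and Gpnmb 752 to 2514 TPM (median 1121) against 0.92 to 7.99 TPM (median 4.005). In that list 9 of 10 genes were higher in eWAT, and the exception was Spp1, osteopontin, at 31.3 to 151 TPM (median 74.1) in liver and 34.6 to 114 TPM (median 56.2) in eWAT, with differences of 1.48 with TMM and 0.58 with library size alone.

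Kupffer cells are the resident macrophages of liver. Of their 6 markers 5 were higher in liver with TMM and 3 with library size alone. Clec4f, a lectin of these cells, stood at 28.5 to 99.4 TPM (median 72.7) in liver and 0.02 to 4.65 TPM (median 1.27) in eWAT, a difference of 7.44 (6.47 without eWAT library 1). Vsig4 and Cd5l had differences of 3.26 and 4.61. The remaining marker, Cd163, was higher in eWAT, at 13.1 to 42.6 TPM (median 26.4) against 0.58 to 7.29 TPM (median 5.37) in liver.

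Lymphocyte markers were low in liver and uneven in eWAT. Of 9 T and NK cell markers 3 (Ncr1, Trac and Klrb1c) were higher in eWAT with TMM and 8 with library size alone. The calls for Trac and Klrb1c were near the threshold and were lost when any of the 6 liver libraries (Trac, with differences of -2.11 to -1.69) or liver library 47 or 48 (Klrb1c, -1.20 and -1.22) was left out. Of 7 B and plasma cell markers TMM called 1, Ighm, which encodes the heavy chain of immunoglobulin M, and library size alone called 4. Among all genes 30.3% were called in eWAT with TMM and 48.8% with library size alone. The TMM counts of both lists were near or under that share. Ighm was 338 to 585 TPM in eWAT libraries 2, 4, 5 and 6, 4447 TPM in library 1 and 7167 TPM in library 3, against 6.02 to 14.4 TPM (median 8.07) in liver. Jchain, which joins immunoglobulin chains in plasma cells, was 443.75 TPM in library 1, 66.65 in library 2, 710.52 in library 3, 39.47 in library 4, 0.94 in library 5 and 2.88 in library 6. Its difference of -3.84 had a 95% interval of -10.52 to 2.84 (limma/voom FDR 0.258), and the lowest eWAT library lay within the liver range of 0.65 to 1.66 TPM (median 0.775). The call depended on the method, since DESeq2 (-6.31, FDR 9.13e-09), edgeR (-6.33, FDR 0.000938), limma/voom on all 84 libraries (-3.81, FDR 0.0295) and limma on log2(TPM + 0.1) and log2(TPM + 1) (-5.18 and -4.47, FDR 0.00352 and 0.00503) each called Jchain higher in eWAT.

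The lining and supporting cells differed too. Of 7 endothelial markers 4 were higher in eWAT with TMM and 7 with library size alone, against 30.3% and 48.8% of all genes. An example was Pecam1 at 107 to 143 TPM (median 119) against 12.1 to 17.8 TPM (median 15.5) in liver. Of 6 markers of liver sinusoidal endothelium 5 were higher in liver with TMM and 4 with library size alone, led by Clec4g at 64.4 to 90.7 TPM (median 75.7) against 0.09 to 5.11 TPM (median 1.27), a difference of 7.52 (6.88 without eWAT library 1). Of 6 stellate cell markers 5 were higher in liver with both scalings. Reln stood at 31.4 to 47.7 TPM (median 37.6) in liver and 0.11 to 1.86 TPM (median 1.02) in eWAT, and Lrat, which stores vitamin A as an ester, at 3.45 to 7.27 TPM (median 5.68) and 0.03 to 0.35 TPM (median 0.115). Of 8 fibroblast and progenitor markers 7 were higher in eWAT, led by Pi16 at 52.2 to 122 TPM (median 73.3) against 0.08 to 0.28 TPM (median 0.1), and Dpp4, also made by hepatocytes, was higher in liver at 29.7 to 33.5 TPM (median 32.4) against 6.45 to 14.4 TPM (median 7.91). Of 7 mesothelial markers 6 were higher in eWAT. Upk3b ranged from 1.02 to 33 TPM there against at most 0.49 TPM in liver, and its call was lost without liver library 44 (a difference of -5.45) or 48 (-5.97).

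Tissues that lie next to the fat pad were looked for. Of 10 markers of epididymal epithelium 9 did not pass the filter on low values and 9 had a mean under 0.1 TPM in eWAT, and all 5 spermatid markers had such a mean. The 1 tested, Lcn8, had 11 to 14 reads in each liver library and at most 1 in each eWAT library. Of 6 skeletal muscle markers 2 passed the filter, and both were higher in eWAT. Both were at or near 0 in liver, so they passed the filter through eWAT alone. Acta1, skeletal actin, stood at 52.5 to 154 TPM (median 103) in eWAT and 0 to 0.07 TPM (median 0) in liver, whereas Tnnt3, a fast muscle troponin, reached only 0.58 to 1.48 TPM (median 0.965) and the other 4 had at most 1.17 TPM. Of 5 brown adipocyte markers Ucp1 was at most 0.48 TPM in eWAT and did not pass the filter. Cox8b and Dio2 were higher in eWAT and Elovl3 and Cidea in liver. Cox8b stood at 34.2 to 65.1 TPM in eWAT, whereas Dio2 reached only 0.25 to 0.64 TPM there. Dio2 had 3 reads in the 6 livers together, so it passed the filter through eWAT alone. The haemoglobin genes, which report blood in the tissue, had differences of -0.74 to -0.44 with TMM and -1.64 to -1.33 with library size alone, and only library size called them, for eWAT.

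Matrix genes were an eWAT group, with 31 of 35 higher there and 2 in liver with TMM, and 33 and 0 with library size alone. The median difference was -3.65 against -0.08 over all genes. Col6a5, a collagen VI chain, stood at 25.3 to 57.4 TPM (median 35.3) in eWAT and 0.05 to 0.36 TPM (median 0.275) in liver, Col15a1, a collagen of basement membranes, at 195 to 271 TPM (median 229) and 1.64 to 5.64 TPM (median 2.38), and Lox, which cross-links collagen, at 24.5 to 46.7 TPM (median 33.9) and 0.08 to 0.25 TPM (median 0.145). Fn1, fibronectin, which hepatocytes secrete into plasma, was one of the 2 that TMM placed in liver, at 452 to 533 TPM (median 502) against 229.6 to 548 TPM (median 337) in eWAT, with differences of 1.16 and 0.26 by the 2 scalings. The other, Col14a1, had differences of 1.10 and 0.21, and lost its TMM call without eWAT library 3 (0.93).

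Hox genes, which record the position of a tissue along the body, were also found mostly in eWAT. Of 39 listed, 23 passed the filter, and 21 of these were higher in eWAT with TMM and 22 with library size alone. None was higher in liver. Hoxc8 had the largest difference, with 7 reads in the 6 livers and 17239 in eWAT, at 32.02 to 61.4 TPM (median 40.3) there. Of all 39, 13 had a mean under 0.1 TPM in eWAT and 28 in liver. A gene near 0 in liver could pass the filter through eWAT alone. The counts of Hox genes called were thus set in part by the filter and describe these genes only.

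Genes that every cell uses showed how far scaling decides. Of 44 ribosomal protein genes 1 (Rps2) was higher in liver with TMM (a difference of 1.02, 0.13 with library size alone, and 0.98 and no call without liver library 48) and 3 were higher in eWAT with library size alone, and 43 had a 95% interval within ±1 with TMM. Their median difference was 0.30 with TMM and -0.59 with library size alone, and by TPM all 44 were above liver in every eWAT library. Proteasome genes had medians of 0.70 and -0.20 in the same order. Respiratory complex genes kept their direction, at 1.64 and 0.74, but the number called for liver fell from 43 of 48 to 9. The 2 of them higher in eWAT with both scalings were Cox8b and Cox6a2, forms known from muscle and brown fat. For groups such as these, whether a gene is higher in liver depends on the scaling. Insulin signalling genes were close to even with TMM, with 3 of 25 higher on each side and 16 intervals within ±1. Library size alone called 2 in liver and 13 in eWAT. The shares of all genes were 22.6% and 30.3% (13.3% and 48.8% with library size alone). Pdk1 and Grb14 were higher in liver with both scalings (differences of 2.85 and 2.33), and Tbc1d4 and Grb10 in eWAT (-2.81 and -2.64). Pdk1, though counted in this list, is a kinase that holds back pyruvate oxidation and not a part of the insulin cascade. Grb14 is an adaptor that binds the insulin receptor. Tbc1d4 is the protein through which insulin releases Slc2a4 to the cell surface.

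**Figure D4:**
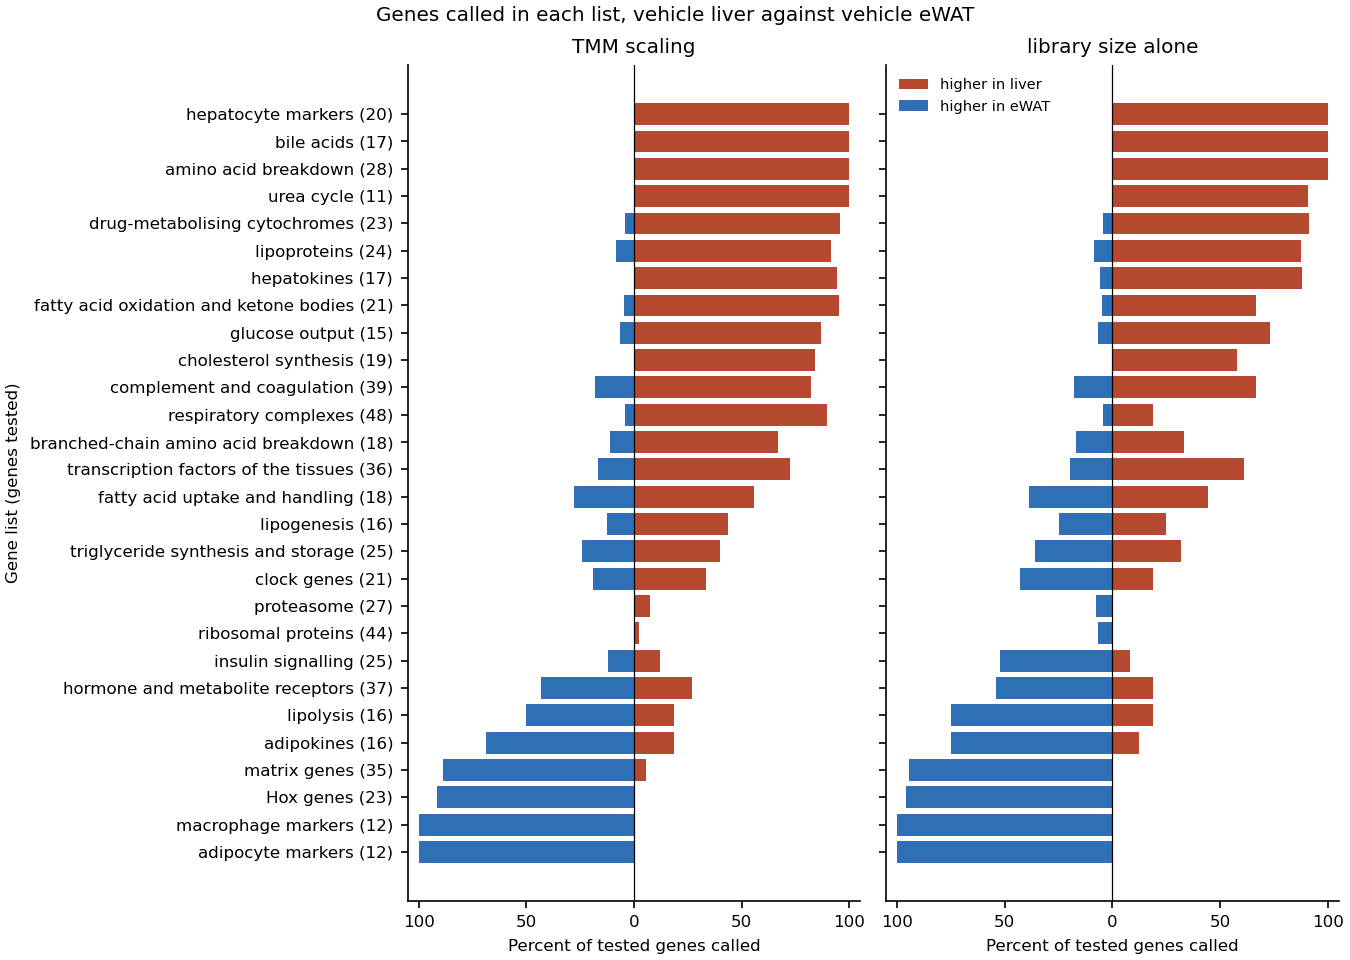
Percent of the tested genes of each list (number tested in brackets) that were called higher in liver (red, to the right) or in eWAT (blue, to the left), with TMM scaling in the left panel and library size alone in the right. The lists of hepatocyte markers, bile acids and amino acid breakdown are fully red and those of macrophage markers and adipocyte markers fully blue in both panels, while respiratory complexes drop from 43 to 9 of 48 genes for liver.

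The clock genes were split. Of 21 genes 7 were higher in liver and 4 in eWAT with TMM (4 and 9 with library size alone). The shares of all genes were 22.6% and 30.3% (13.3% and 48.8% with library size alone). Nr1d1, a nuclear receptor that represses clock genes, stood at 13.2 to 40.9 TPM (median 23.6) in eWAT against 2.09 to 3.2 TPM (median 2.31) in liver. The hour at which the tissues were taken is not given for these libraries in the sources used here.

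Across all genes with at least 10 TPM in the higher tissue and no overlap, the 10 largest differences for liver were those of Cyp2c29, Pklr, Cldn2, Tm4sf4, Otc, Cyp2a5, Dmgdh, Pla2g12b, Akr1c6 and Cyp2c37, from 8.22 down to 7.97. Without eWAT library 1 these 10 lay between 6.52 and 7.13, so that their sizes rested on that library, and without library 2 Cyp2c29 came to 8.85, Otc to 8.77 and Pla2g12b to 8.60. Cldn2, a tight junction protein, stood at 42.9 to 58.2 TPM (median 56.5) in liver and 0.01 to 2.89 TPM (median 0.87) in eWAT, and Pla2g12b, which is needed to load lipoproteins with lipid, at 65.6 to 70 TPM (median 67.03) and 0 to 4.72 TPM (median 1.16). For eWAT they were those of Lep, Lgals12, Adipoq, Slc7a10, Plin1, Lctl, Crtac1, Ankef1, Nnat and Cdsn, from -13.06 to -11.12. Lgals12, a galectin of lipid droplets, stood at 61.4 to 142 TPM (median 78.4) in eWAT, Slc7a10, a small amino acid carrier of adipocytes, at 139 to 275 TPM (median 166), and Nnat, an imprinted membrane protein gene, at 606 to 1819.9 TPM (median 879). The sizes for eWAT depend on the pseudocount of 0.5, since no more than 10 reads of Lep and 3 of Lgals12 were seen in any liver library.

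Spread between the 6 libraries of a tissue was small for most genes. Among genes with a mean of at least 10 TPM, the median SD of log2(TPM + 0.1) was 0.135 in liver (6059 genes) and 0.160 in eWAT (9346 genes), and the 90th percentile was 0.312 and 0.457. An SD of at least 1 was found for 26 genes in liver and 256 in eWAT. Of these 256 genes 109 were higher in liver in the comparison above, and without eWAT library 1 the SD of 214 of the 256 was still at least 1. Of 5364 genes with at least 10 TPM in both tissues, 2811 (52.4%) had the larger SD in eWAT. In liver the 5 widest genes were Gm21887 and the major urinary protein genes Mup7, Mup12, Mup1 and Mup15, which encode pheromone carriers and are near copies of each other. Mup7 was 1191.07 and 1121.43 TPM in liver libraries 44 and 47 and 6.2 to 82.29 TPM in the other 4. In eWAT the widest were Mup7, Jchain, Gm21887, Mzb1 and Tdo2, and Mzb1, a plasma cell gene, was highest in library 3 at 45.89 TPM, as was Jchain.

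**Figure D5:**
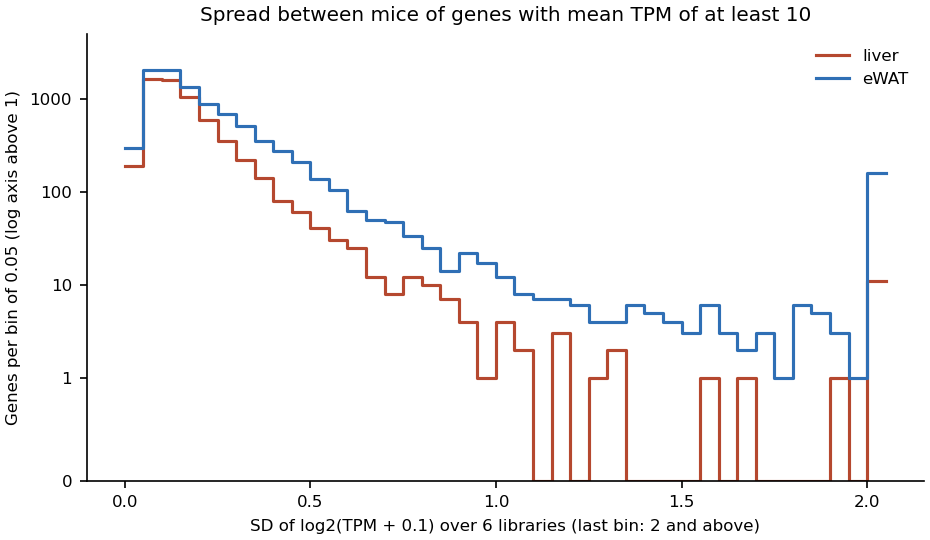
Number of genes per bin of 0.05 (y axis, log scale above 1) against the SD of log2(TPM + 0.1) over 6 vehicle libraries (x axis), for 6059 liver (red) and 9346 eWAT (blue) genes with a mean of at least 10 TPM, where the last bin holds all genes with an SD of 2 or more. Both curves peak at low SD, and eWAT has the longer tail, with 256 genes at an SD of at least 1 against 26 in liver.

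The same contrast could be drawn in the treated mice, whose libraries did not enter the fit above. In one limma/voom fit of all 84 libraries, 83.6% to 92.8% of the 8942 vehicle calls were called in the same direction in each of the 6 treated groups, which is 74.04% to 80.59% of the calls of that group. The lowest share was at 30 nmol/kg and the highest at 3 nmol/kg of BI456906, and between 0 and 29 vehicle calls were called in the opposite direction. The share of hepatocyte transcripts in eWAT differed between the groups, with medians of 0.133% to 0.437% in the treated groups against 2.32% in vehicle, and its part in these shares was not tested.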

How the data were processed

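RNA was extracted from liver and eWAT for sequencing, and the authors deposited 2 kinds of value per gene and library. The TPM values were made by the authors as shares of each library after division by transcript length. The signal values were made by the authors from read counts by dividing them by a factor of each library, so they are not whole counts. Per the labels' processing notes the tools were STAR 2.5.2b, RSEM 1.3.0, featureCounts 1.5.1 and FastQC 0.11.5 with build mm10/GRCm38. The paper's methods name featureCounts as the source of the mapped counts. The role of the other tools, the annotation and the strand setting are not given in the sources used here, and the labels and the paper name different library kits, so antisense, overlapping and near-identical genes are uncertain. Whole reads were recovered for 100% of values (tolerance 0.01), and 48434 of 48794 genes had a symbol (GENCODE M21).

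The deposited scaled counts of the 6 vehicle liver and 6 vehicle eWAT libraries were fitted with voom (pseudocount 0.5) in limma 3.58.1 (R 4.3.3) with TMM factors from edgeR 4.0.16, which ran from 0.678 to 0.769 in liver and from 1.333 to 1.387 in eWAT. Genes with low values were left out by edgeR's filterByExpr with the tissue as the group, which kept 16885. A gene could pass this filter through 1 tissue alone. FDR is Benjamini-Hochberg over all genes tested. On simulated counts, with 17165 genes tested, the fit called 0 of 50 genes changed by 1.5-fold, 47 of 50 at 2.5-fold and all 50 at 4-fold and at 8-fold. A 1.5-fold change lies under the log2 difference of 1 that a call needs. How the fit performs on libraries that differ in make-up as widely as these tissues was not tested. No 2 libraries of a group agreed within sampling noise (30 pairs compared by chi-square over genes, all at least 15.7 times the degrees of freedom). The labels do not say that libraries come from separate animals, so p-values measure the spread between libraries. Intervals from reads cover counting error only. Alternatives were other scalings, filters and weights, TPM on a log2 scale, edgeR and DESeq2 1.42.0 on recovered reads, and leaving out each library.

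The gene lists, pairs and members were chosen with earlier results of these data known. Named are the genes of the pairs, Gcgr, Glp1r and Gipr, the 5 most abundant genes of each tissue, the 10 largest differences in each direction, up to 3 called genes of each list in each direction, the 5 of largest spread and members of lists of at most 12. Other genes (Cebpa, Fasn, Pck1, Fgf21) were chosen after their values were seen. Some genes that these rules name are not reported here.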

Additional observations from a re-analysis of the deposited data

Results flagged for a closer look

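For each gene given with values, the highest or lowest of the 6 libraries of a tissue was set against the rest by its gap to the nearest library over the whole range and Dixon's 95% critical value. Of 262 groups of 6 libraries, 24 (9.16%) passed. The critical value flags about 1 in 20 groups when these are unselected and independent. Here some genes were named for their large spread and all genes share the same libraries, so the 2 rates cannot be compared. In eWAT library 2, which had the highest share of hepatocyte markers (7.67%), 9 genes stood apart. Each was higher than in the other 5 eWAT libraries. The values there were Asgr1 at 49 TPM against 0.42 to 18.43 TPM, Cideb at 28.08 TPM against 0.24 to 10.66 TPM, Clec4g at 5.11 TPM against 0.09 to 1.62 TPM, Cps1 at 45.49 TPM against 0.06 to 16.11 TPM, Elovl5 at 81.72 TPM against 53.37 to 63.44 TPM. They were also Gata4 at 1.3 TPM against 0 to 0.4 TPM, Mup7 at 69.39 TPM against 0 to 14.93 TPM, Otc at 16.79 TPM against 0 to 6.24 TPM and Slc10a1 at 37.52 TPM against 0.21 to 12.83 TPM. The part of the liver transcripts in these 9 values was not tested.

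In the other eWAT libraries the values that stood apart were those of Bcat1 in eWAT library 6 at 37.1 TPM (the others 7.07 to 18.33 TPM), Cd5l in eWAT library 3 at 32.36 TPM (the others 1.65 to 10.42 TPM), Cidea in eWAT library 6 at 8.1 TPM (the others 4.3 to 5.57 TPM), Glp1r in eWAT library 5 at 0.09 TPM (the others 0 to 0 TPM) and Mc2r in eWAT library 5 at 23.95 TPM (the others 11.05 to 15.8 TPM). In liver they were those of Acta1 in liver library 46 at 0.07 TPM (the others 0 to 0.02 TPM), Bcat1 in liver library 46 at 0.01 TPM (the others 0 to 0 TPM), Cldn2 in liver library 48 at 42.89 TPM (the others 54.97 to 58.25 TPM), Ebf1 in liver library 45 at 0.18 TPM (the others 0.11 to 0.13 TPM), Grb14 in liver library 44 at 33.39 TPM (the others 31.27 to 32.02 TPM), Ighm in liver library 45 at 14.36 TPM (the others 6.02 to 8.86 TPM), Lgals12 in liver library 46 at 0.04 TPM (the others 0 to 0 TPM), Nr1d1 in liver library 43 at 3.2 TPM (the others 2.09 to 2.45 TPM), Scd1 in liver library 43 at 1039.08 TPM (the others 1629.55 to 1800.17 TPM) and Slc7a10 in liver library 45 at 0.27 TPM (the others 0 to 0.07 TPM). The liver values of Acta1, Bcat1, Lgals12, Ebf1 and Slc7a10 are all under 1 TPM.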

How the results depend on the processing

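The number of calls depended on the scaling and on the filter. The 3823 genes higher in liver became 2254 with library size alone, 1892 with limma on log2(TPM + 0.1), 1458 with limma on log2(TPM + 1) and 6757 with no filter on low values, which tested 30358 genes. The 5119 genes higher in eWAT became 8233, 10761 and 8307 under the first 3 of these, and 3170 with at least 10 counts required in every library, which drops genes that are near 0 in liver. Leaving out 1 library gave 3819 to 3990 genes for liver and 5106 to 5331 for eWAT. RLE size factors, upper quartile factors, sample quality weights, all 84 libraries in one fit, recovered reads in voom, DESeq2 and edgeR stayed within 1.5 times of the main counts, with 3806 (DESeq2) and 3816 (edgeR) for liver and 5233 and 5197 for eWAT.

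Among 130 genes given with values, 13 of 3075 refits changed sign. Plin2 came to -0.49 with library size alone and -1.09 with each of the TPM fits. Cebpa came to -0.34, Glul to -0.28 and Rps2 to -0.30 in both TPM fits. Gm21887 came to 0.09 with DESeq2 and 0.08 with edgeR, and Mzb1 ranged from -0.97 (without eWAT library 5) to 0.37 (without eWAT library 3) when 1 library was left out, with 0.19 without eWAT library 1. The cause was not tested. With library size alone 7 of the 130 lost their call and 2 gained one, and 7 lost it when 1 library was left out. No paired analysis was possible because the liver libraries (43 to 48) and the eWAT libraries (1 to 6) share no number and the labels do not tie a liver and an eWAT library to one animal. Depth limits genes with 10 reads or fewer in every library of one tissue, whose fitted difference depends on the pseudocount.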

Other observations

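Fatty acid uptake and handling was the remaining lipid list. With TMM 10 of its 18 genes were higher in liver and 5 in eWAT (8 and 7 with library size alone). All genes had shares of 22.6% and 30.3% (13.3% and 48.8% with library size alone). Cholangiocyte markers were low, with 5 of 6 tested and 3 higher in liver. Of 7 exocrine pancreas markers 1, Cela1, passed the filter, and TMM called it in neither tissue while library size alone called it in eWAT. Of 5 erythroid markers 1, Alas2, which starts haem synthesis, was higher in liver. Gm21887 was 0 TPM in liver library 48 and in eWAT library 6, and 15.02 to 85.43 TPM in the other 5 liver libraries and 6.78 to 118.06 TPM in the other 5 eWAT libraries, with the highest values in liver library 45 and eWAT library 3. Whether libraries of the 2 tissues came from the same animals is not given in the sources used here.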
